A study of Homo sapiens with 12 samples.

Results

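The 10 genes described here encode amino acid transporters: SLC1A4, SLC1A5, SLC3A2, SLC7A5, SLC7A8, SLC7A11, SLC38A1, SLC38A2, SLC43A1 and SLC36A1. They were chosen by name from the gene table of an RNA-seq study of LNCaP cells, a human prostate cancer line that grows in response to androgen. All 10 were among its 34643 listed genes, and all 10 were among the 15419 that had enough counts to be tested. The study asked how lowering TMEFF2, a transmembrane protein found mainly in prostate and brain, changes gene expression with and without the androgen dihydrotestosterone (DHT). Each of 4 groups had 3 libraries: the control hairpin with vehicle (sh_scramble -DHT) or with androgen (sh_scramble +DHT), and the hairpin against TMEFF2 likewise (sh_TMEFF2 -DHT, sh_TMEFF2 +DHT). Every library came from cells transduced with a lentivirus that expresses a short hairpin RNA from a U6 promoter and selected with puromycin, so the control cells also carried a hairpin (sh_scramble). RNA was taken about 17 days into hairpin expression, after 24 h in hormone-depleted medium and then 24 h with 10 nM DHT or with the ethanol vehicle. The 3 replicates were separate treatments of pools from 2 transductions, and the labels do not say which replicate came from which, so the p-values measure the spread between these libraries. It is not stated which TMEFF2 hairpin was sequenced.

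Amino acids cross the plasma membrane on carriers that divide the work. The L-type carriers move leucine and other large neutral amino acids: SLC7A5 (LAT1) and SLC7A8 (LAT2) each pair with the heavy chain SLC3A2 (CD98), which brings them to the cell surface, and work by exchange, whereas SLC43A1 (LAT3) works alone by facilitated diffusion. SLC1A5 (ASCT2) takes up glutamine by exchange and its relative SLC1A4 (ASCT1) carries alanine, serine and cysteine, while SLC38A1 and SLC38A2 move glutamine and other small neutral amino acids inward with sodium. SLC7A11 (xCT), also a partner of SLC3A2, brings in cystine for glutathione synthesis in exchange for glutamate, and SLC36A1 (PAT1) moves small amino acids with protons, in many cells out of the lysosome. Leucine inside the cell is sensed by proteins that act on the mTORC1 kinase complex at the lysosome.

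The sequences just upstream of 4 of the genes are shown because these carriers had the changes on which the results turn. They are RefSeq promoter windows on GRCh38.p14, printed 5′ to 3′ on the gene's strand. Each ends at the base before the annotated gene, so that no base of that gene itself is included. The SLC1A5 window lies within an annotated long noncoding RNA gene on the other strand. All 4 genes lie on the minus strand. Capitals mark an E-box, CACGTG, the letters bound by MYC, USF and related factors.
SLC43A1, chr11:57515781-57515952: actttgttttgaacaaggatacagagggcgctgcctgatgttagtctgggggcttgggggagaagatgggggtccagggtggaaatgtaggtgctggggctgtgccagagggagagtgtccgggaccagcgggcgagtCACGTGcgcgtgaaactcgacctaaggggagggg
SLC7A5, chr16:87869508-87869757: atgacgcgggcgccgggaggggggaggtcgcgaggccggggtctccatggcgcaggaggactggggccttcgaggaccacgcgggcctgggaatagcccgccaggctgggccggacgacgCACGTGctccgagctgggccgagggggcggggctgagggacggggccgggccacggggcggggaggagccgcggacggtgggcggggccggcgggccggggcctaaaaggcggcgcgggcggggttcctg
SLC7A8, chr14:23183675-23183910: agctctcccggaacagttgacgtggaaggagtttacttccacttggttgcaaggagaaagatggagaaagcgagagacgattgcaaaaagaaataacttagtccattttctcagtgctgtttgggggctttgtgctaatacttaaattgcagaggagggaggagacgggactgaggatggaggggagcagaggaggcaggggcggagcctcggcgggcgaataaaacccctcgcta
SLC1A5, chr19:46788595-46788844: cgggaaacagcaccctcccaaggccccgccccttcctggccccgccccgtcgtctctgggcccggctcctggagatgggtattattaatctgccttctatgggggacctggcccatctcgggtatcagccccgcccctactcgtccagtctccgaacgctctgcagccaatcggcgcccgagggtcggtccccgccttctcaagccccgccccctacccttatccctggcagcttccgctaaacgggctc
The windows differ in base composition. The SLC7A5 window holds 34 CG dinucleotides and the SLC1A5 window 19, against a median of 11 over 35114 RefSeq promoters cut to 250 bases, while the shorter windows of SLC7A8 and SLC43A1 hold 10 and 8. Windows of 8 of the 10 genes could be searched on both strands. CACGTG was present in 2 of them, SLC43A1 and SLC7A5, and in 6.35% of all promoters. AGAACA, a core motif of steroid hormone response elements, was in 0 of the 8 and in 12.4% of all promoters, and TGATGNAA, the composite C/EBP-ATF site, was in 0 of the 8 and in 3.14%. These counts concern only the letters in these windows.

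Within the annotation of GRCh38, SLC43A1 lies on chromosome 11 from 57484534 to 57515780 and its canonical transcript has 15 exons. SLC7A5 is on chromosome 16 from 87830023 to 87869507, SLC7A8 on chromosome 14 from 23125295 to 23183674, and SLC1A5 on chromosome 19 from 46774883 to 46788594. SLC43A1 and SLC3A2 overlap no other annotated gene. Each of the other members overlaps at least 1 annotated gene, and reads from a stretch shared with a gene on the other strand cannot be assigned unless strand was used, which the sources do not state.

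Libraries held 19450866 to 22612046 estimated counts (median 21194622), summed over 2 columns each, whose suffix the labels do not explain. TMEFF2 itself stood at 85.0 ± 15.9 CPM (mean ± SD, n = 3) in sh_scramble -DHT and 63.2 ± 21.7 in sh_TMEFF2 -DHT, and at 153 ± 31.4 and 116 ± 26.0 CPM with DHT. The lines overlapped at both DHT levels, and neither difference passed the test (edgeR adjusted p = 0.503 and 0.304), with a fitted level of 0.744 and 0.754 of the control. By Western blot the study saw appreciable silencing of the protein with some of its TMEFF2 hairpins, a measure these RNA levels do not give. DHT acted in both lines: FKBP5, an androgen-induced gene, rose 10.4-fold in sh_scramble and 1.85-fold in sh_TMEFF2, and KLK3, which encodes prostate-specific antigen, rose 3.89-fold and 5.47-fold. KLK3 was nevertheless lower in sh_TMEFF2, at 356 ± 134 against 1925 ± 26.5 CPM without DHT (edgeR adjusted p = 0.000283) and at 1949 ± 511 against 7495 ± 261 CPM with DHT (8.28e-05). The luminal prostate markers FOLH1, HOXB13, KRT8 and KRT18 were present in all libraries, at 316 CPM or more. Their levels were not constant: with DHT in sh_scramble KRT8 rose 2.54-fold and KRT18 2.19-fold and FOLH1 fell to 0.543 of its level, while in sh_TMEFF2 KRT8 and KRT18 did not pass (edgeR adjusted p = 0.326 and 0.594). Of 6 markers of cells the culture should not hold, the basal KRT5 was at 0 in all libraries, TP63 and the collagen gene COL1A2 did not exceed 0.45 CPM, and the endothelial PECAM1 did not exceed 1.63 CPM. COL1A1 (11.9 to 30.4 CPM) and PTPRC (3.15 to 7.74 CPM) were detected. COL1A1 fell with DHT in both lines (log2 fold change -0.61 and -0.68), PTPRC fell with DHT in sh_scramble (-0.59), and with DHT PTPRC was higher in sh_TMEFF2 (0.65). The part of these marker changes in the transporter results was not tested.

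Levels of different genes are compared as CPM per kb of the longest coding transcript. On this scale SLC38A2 was the highest carrier, at group means of 85.4 to 93.2, and SLC3A2, the shared heavy chain, was next at 65.1 to 70.7. SLC1A5 (27.4 to 42.3), SLC38A1 (26.4 to 32.1), SLC7A8 (15.6 to 21.7) and SLC7A11 (13.4 to 17.2) followed. SLC43A1 ranged most, from 11.9 to 37.7, so that its rank depended on the group. SLC7A5 (3.76 to 9.26), SLC1A4 (3.12 to 4.07) and SLC36A1 (1.11 to 1.79) were lowest. The SLC3A2 value rises to between 80.6 and 87.6 when its shorter canonical transcript is used, which brings it close to SLC38A2, and the order of these highest genes is therefore uncertain. In bulk RNA, fewer cells that express a carrier and less of its RNA per cell cannot be told apart.

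**Figure D1:**
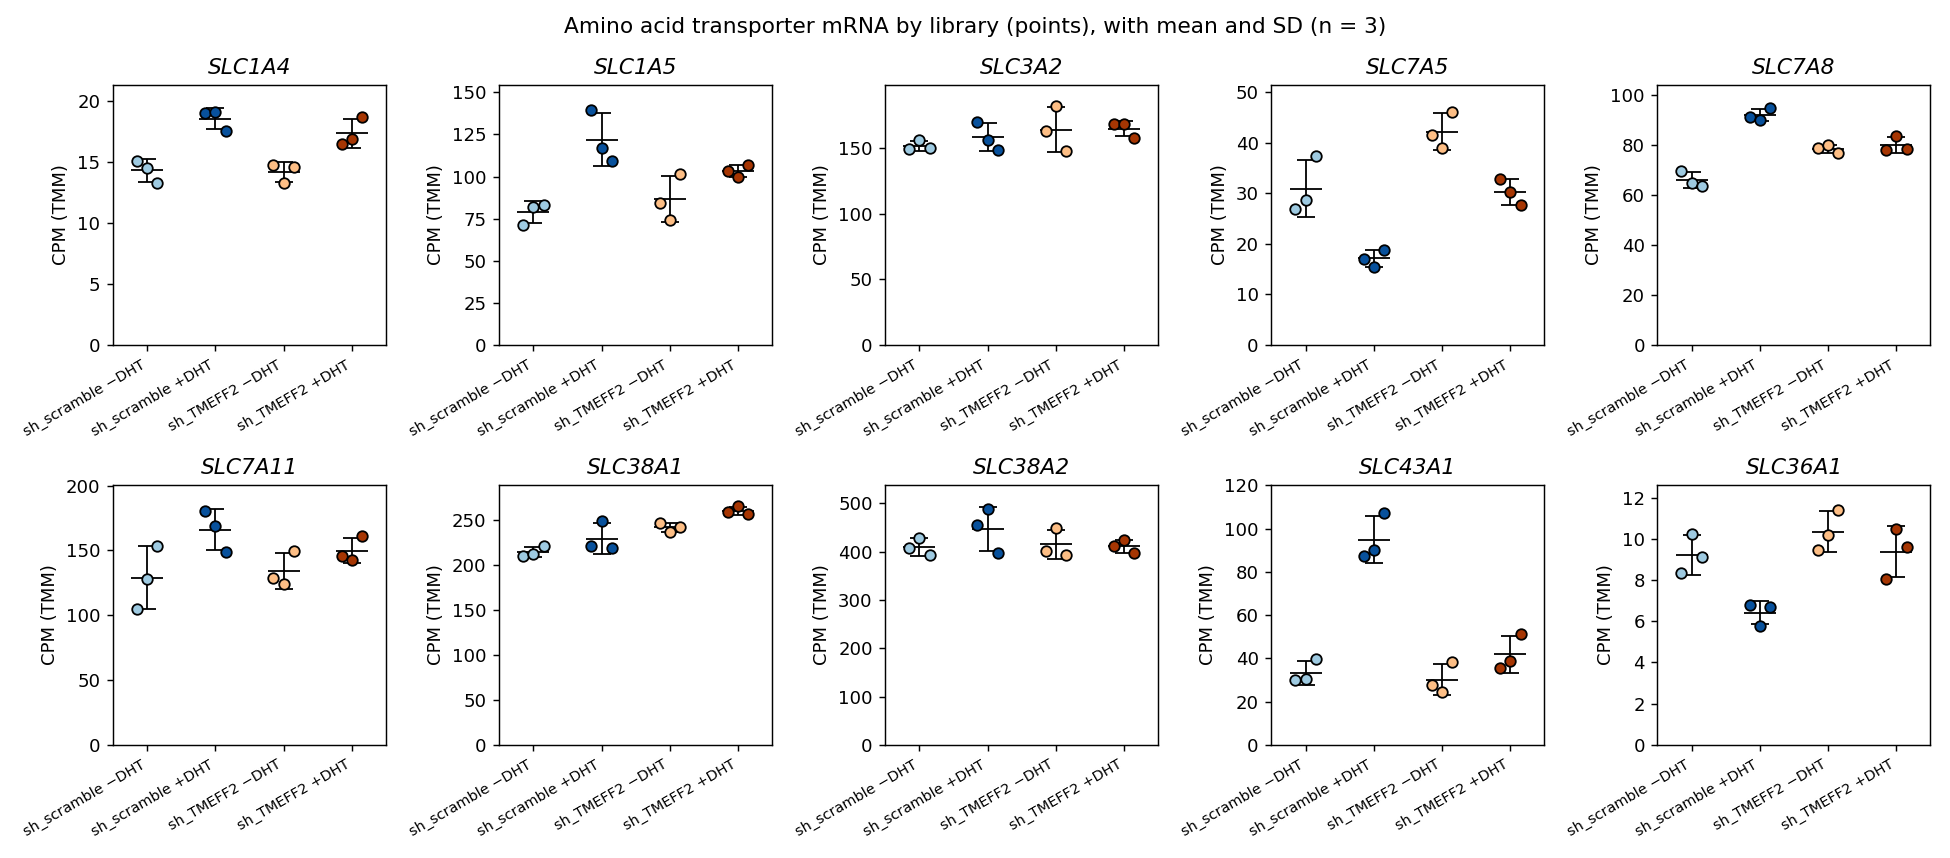
mRNA level of each of the 10 transporters (TMM-normalized CPM, linear axis from 0) in the 4 groups. Points are libraries, and the bar and whiskers are the mean and SD of 3. SLC43A1 in sh_scramble +DHT (87.2 to 107 CPM) lies above every other library, and SLC7A5 is lowest in the same group (15.5 to 18.9 CPM).

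In control cells, DHT shifted the leucine carriers in opposite directions. SLC43A1 rose 2.86-fold and SLC7A5 fell to 0.554 of its level, while SLC7A8 rose 1.395-fold. The glutamine carrier SLC1A5 rose 1.55-fold, and SLC1A4 and SLC7A11 rose 1.30-fold and 1.29-fold. SLC36A1 fell to 0.697 of its level. The heavy chain SLC3A2 and the sodium-coupled carriers SLC38A1 and SLC38A2 did not pass the test. A call below means a change of 1.5-fold or more together with an adjusted p no higher than 0.05. On that basis 2 members were called higher (SLC43A1 and SLC1A5), against 5.45% of all tested genes, and 1 was called lower (SLC7A5), against 6.45%. By the adjusted p alone 5 members rose, where 14.4% of all genes did, and 2 fell, where 12.6% did. The median log2 fold change of the 10 members was 0.25, and that of all tested genes was -0.01.

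SLC43A1 stood at 29.9, 30.3 and 39.5 CPM in the sh_scramble -DHT libraries and at 87.2, 90.3 and 107 CPM in sh_scramble +DHT. The 2 groups were far apart, and replicate 3 was the highest of its group in both. The log2 fold change was 1.51 ± 0.18 (SE, edgeR adjusted p = 5.63e-05), the largest of the 10, and it passed under all 22 alternatives, with values from 1.42 to 1.66. SLC7A5 stood at 26.9, 28.6 and 37.3 CPM without DHT and at 17.1, 15.5 and 18.9 CPM with it. Each library with DHT was below each without, and the log2 fold change was -0.85 ± 0.13 (edgeR adjusted p = 0.000353), between -0.94 and -0.69 under the alternatives. SLC7A8 read 69.5, 64.8 and 63.5 CPM without DHT and 91.3, 90.1 and 94.6 CPM with it. This was a smaller rise (log2 fold change 0.48 ± 0.06, edgeR adjusted p = 7.35e-05) with a narrow spread, and it lay below the 1.5-fold limit.

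SLC1A5 stood at 71.5, 81.9 and 83.3 CPM in sh_scramble -DHT and at 140, 117 and 109 CPM with DHT. The groups did not overlap and the log2 fold change of 0.63 ± 0.11 (edgeR adjusted p = 0.0014) lay just over the 1.5-fold limit. It passed by the adjusted p in all 22 alternatives but fell under that limit with library size in place of TMM (0.56), from the first columns alone (0.58), and without replicate 1 of sh_scramble -DHT (0.56) or of sh_scramble +DHT (0.52). SLC1A4, the other ASCT carrier, moved from 15.1, 14.5 and 13.3 CPM to 19.0, 19.1 and 17.6 CPM, a log2 fold change of 0.37 ± 0.10 (edgeR adjusted p = 0.0111). SLC1A4 no longer passed when only the second column of each library was used (adjusted p = 0.137). SLC7A11, the cystine carrier, read 105, 128 and 154 CPM without DHT and 181, 169 and 149 CPM with it, so the groups overlapped. Its rise of 0.37 ± 0.12 on the log2 scale passed narrowly (edgeR adjusted p = 0.0443) and was lost under 11 of 22 alternatives, 7 of which left out 1 library each: replicates 1 and 2 of either sh_scramble group, replicate 1 of sh_TMEFF2 -DHT, or replicate 1 or 2 of sh_TMEFF2 +DHT. Adjusted p was then 0.0534 to 0.163.

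SLC36A1, the lowest of the carriers, stood at 8.33, 10.2 and 9.10 CPM without DHT and at 6.81, 5.76 and 6.70 CPM with it. The groups did not overlap, and the log2 fold change was -0.52 ± 0.14 (edgeR adjusted p = 0.0155). The fall, which was short of 1.5-fold, did not pass without sh_scramble -DHT replicate 2 (adjusted p = 0.0628), without sh_scramble +DHT replicate 2 (0.0653) or from the first columns alone (0.200), and it went past 1.5-fold without sh_scramble -DHT replicate 1 (-0.59), with library size in place of TMM (-0.59) and from the second columns alone (-0.68). Over both lines and DHT levels, the members that did not pass in sh_scramble varied little: SLC3A2 read 148 to 182 CPM in the 12 libraries, SLC38A1 209 to 265 CPM and SLC38A2 393 to 488 CPM. For SLC3A2 the log2 DHT response in sh_scramble was 0.06, with a 95% interval from -0.10 to 0.23, and its sign turned when library size replaced TMM scaling (-0.01). The intervals were -0.03 to 0.22 for SLC38A1 and -0.04 to 0.29 for SLC38A2, all short of a 1.5-fold change.

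In sh_TMEFF2 cells SLC7A5 was the only member to pass for DHT by the edgeR adjusted p, and no member changed by 1.5-fold. By edgeR, 0 members were called higher, against 3.28% of all tested genes, and 0 lower, against 1.60%. With the adjusted p alone 0 rose, against 7.84% of all genes, and 1 fell, against 5.21%. At an unadjusted p under 0.05 there were 4 members (SLC1A4, SLC1A5, SLC7A5 and SLC43A1). DESeq2 passed 3 by its adjusted p and limma-voom 1, and neither called any with the fold limit. The member median was 0.06 and the median of all genes -0.02 on the log2 scale.

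The member that fell was SLC7A5, which read 41.5, 39.0 and 46.1 CPM without DHT and 32.8, 30.3 and 27.8 CPM with it. It fell by 0.48 ± 0.12 on the log2 scale (edgeR adjusted p = 0.0248). That result was lost without replicate 1 (adjusted p = 0.0625) or 3 (0.084) of sh_TMEFF2 -DHT, without replicate 2 (0.072) or 3 (0.118) of sh_TMEFF2 +DHT, and from the first columns alone (0.0631). SLC43A1 read 27.7, 24.3 and 38.2 CPM without DHT and 35.3, 38.6 and 51.4 CPM with it. These groups overlapped, replicate 3 was again the highest of each, and the log2 fold change of 0.48 ± 0.18 did not pass (edgeR adjusted p = 0.104). It passed with DESeq2 (0.0376) and without replicate 3 of sh_TMEFF2 -DHT (log2 fold change 0.70, edgeR adjusted p = 0.0235). It also passed with the replicate number as a block, a fit given in the last section. The labels do not say what a shared replicate number means. SLC7A8 read 78.7, 80.0 and 76.7 CPM without DHT and 77.7, 83.5 and 78.1 CPM with it. The 2 groups lay on top of each other, and the 95% interval of the log2 response ran from -0.10 to 0.15.

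SLC1A5 read 84.3, 74.1 and 101 CPM in sh_TMEFF2 -DHT and 103, 99.95 and 107 CPM in sh_TMEFF2 +DHT. The groups overlapped at replicate 3 without DHT, and the log2 fold change of 0.26 ± 0.11 did not pass (edgeR adjusted p = 0.17). Without replicate 3 of sh_TMEFF2 -DHT, its highest library, the value was 0.39 and passed (edgeR adjusted p = 0.04). SLC1A4 read 14.8, 13.3 and 14.6 CPM without DHT and 16.5, 16.9 and 18.7 CPM with it, and its log2 fold change of 0.29 ± 0.09 was close to that in sh_scramble but just missed the threshold (edgeR adjusted p = 0.0636). SLC7A11 (0.16 ± 0.12), SLC36A1 (-0.14 ± 0.14), SLC38A1 (0.11 ± 0.06), SLC38A2 (-0.01 ± 0.08) and SLC3A2 (0.01 ± 0.08) did not pass.

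**Figure D2:**
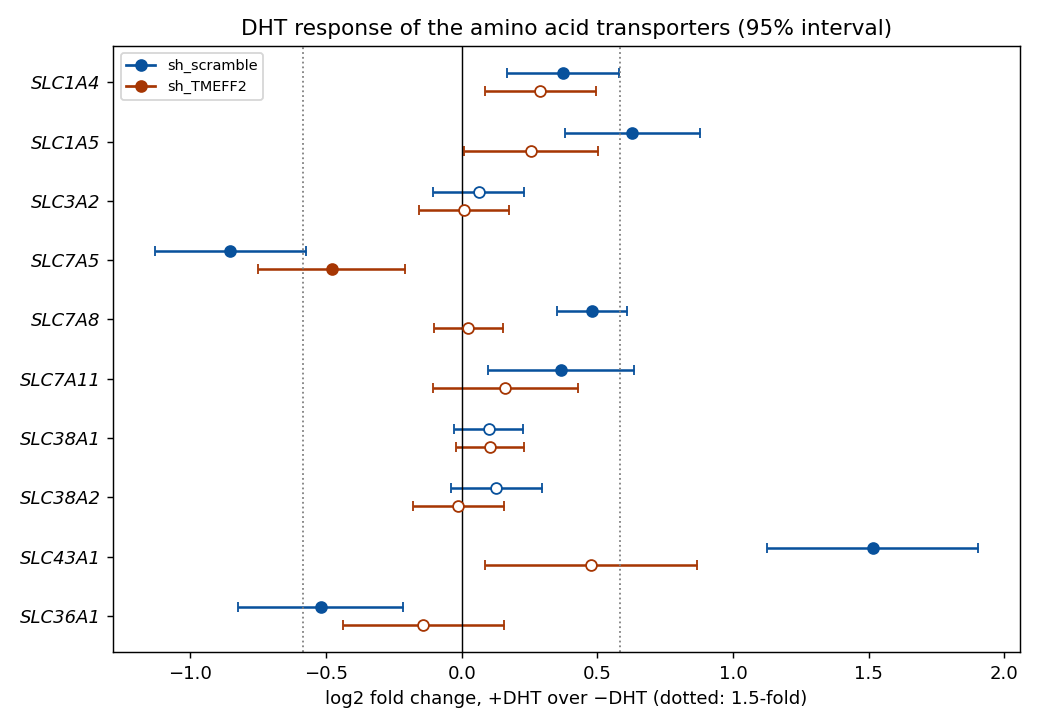
Log2 fold change of each transporter with DHT in sh_scramble (blue, upper of each pair) and sh_TMEFF2 (brown, lower), with 95% intervals from edgeR. Filled points passed an adjusted p of 0.05 and dotted lines mark 1.5-fold. SLC43A1 stands apart at 1.51 in sh_scramble against 0.48 in sh_TMEFF2, and SLC7A5 is below 0 in both lines.

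Whether a carrier responded differently to DHT in the 2 lines was tested directly as an interaction. It passed for 2 members, both with a lower response in sh_TMEFF2, against 3.29% of all tested genes, and for 0 members with a higher response, against 1.65%. For SLC7A8 the response was lower by 0.46 ± 0.08 on the log2 scale in sh_TMEFF2 (difference -0.46, edgeR adjusted p = 0.00775), and this passed under all 21 alternatives. For SLC43A1 the difference was -1.04 ± 0.25 (edgeR adjusted p = 0.034). It kept its direction throughout, from -1.21 to -0.82, but missed the threshold in 11 of 21 alternatives: with library size in place of TMM (adjusted p = 0.0531), from the first columns alone (0.0513), and without 9 of the 12 libraries in turn (0.0502 to 0.0883), the 3 whose removal kept it being sh_scramble -DHT replicate 3, sh_TMEFF2 -DHT replicate 2 and sh_TMEFF2 +DHT replicate 3. Among all genes, 33.4% of the interactions called were higher, and 48.2% with library size in place of TMM.

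For the remaining members the difference did not pass, which does not show that the lines responded alike. SLC1A5 had a difference of -0.37 with a 95% interval from -0.72 to -0.02 (edgeR adjusted p = 0.248). SLC7A5 had 0.37, from -0.01 to 0.76 (0.307), and SLC36A1 had 0.38, from -0.05 to 0.80 (0.353). Thus a smaller response in sh_TMEFF2 was measured for SLC7A5 and SLC1A5 but was not separated from the spread between libraries. The interval for SLC1A4 ran from -0.38 to 0.21, for SLC7A11 from -0.58 to 0.17, for SLC38A2 from -0.38 to 0.10, for SLC3A2 from -0.29 to 0.18 and for SLC38A1 from -0.17 to 0.18.

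Without DHT, no member passed the test between the lines. By edgeR, 0 members were called higher in sh_TMEFF2, against 0.298% of all genes, and 0 lower, against 0.272%, or 0 against 0.623% and 0 against 0.493% by the adjusted p alone. Unadjusted p was under 0.05 for 3 members, SLC7A5, SLC7A8 and SLC38A1. DESeq2 passed 2 of them, SLC7A5 and SLC7A8, and limma-voom 0. SLC7A5 was at 38.95 to 46.1 CPM in sh_TMEFF2 -DHT and at 26.9 to 37.3 CPM in sh_scramble -DHT, with no overlap (log2 fold change 0.45 ± 0.12, edgeR adjusted p = 0.118). Without sh_scramble -DHT replicate 3, the highest control library, the difference was 0.61 and passed (edgeR adjusted p = 0.0354). SLC7A8 was at 76.7 to 80.0 CPM against 63.5 to 69.5 CPM (0.25 ± 0.06, edgeR adjusted p = 0.0708). SLC43A1, the gene with the largest DHT response, overlapped between the lines without DHT (-0.15 ± 0.18, 95% interval -0.54 to 0.25).

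With DHT present the lines differed in 5 members, and the leucine carriers again went opposite ways. SLC43A1 was lower in sh_TMEFF2 and SLC7A5 was higher. Of the members, 1 was called higher (SLC7A5), against 3.03% of all genes, and 1 lower (SLC43A1), against 3.74%. By the adjusted p alone 3 were higher (SLC7A5, SLC36A1 and SLC38A1), against 6.93%, and 2 lower (SLC43A1 and SLC7A8), against 9.09%. Over all genes the calls were 44.7% higher under TMM and 57.0% higher with library size alone. The member median was -0.11 and the median of all genes 0.00 on the log2 scale.

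SLC43A1 was at 35.3 to 51.4 CPM in sh_TMEFF2 +DHT and at 87.2 to 107 CPM in sh_scramble +DHT, a log2 fold change of -1.18 ± 0.18 (edgeR adjusted p = 0.000647), or 2.27-fold lower. SLC7A5 was at 27.8 to 32.8 CPM against 15.5 to 18.9 CPM, a log2 fold change of 0.82 ± 0.13 (edgeR adjusted p = 0.000888), or 1.77-fold higher. Neither gene's groups overlapped, and both differences passed under all 22 alternatives. SLC36A1 was at 8.06 to 10.5 CPM against 5.76 to 6.81 CPM (0.55 ± 0.14, edgeR adjusted p = 0.0187). This depended on the columns used, being 0.26 (adjusted p = 0.475) from the first and 0.87 from the second column of each library. It was lost without replicate 2 of sh_scramble +DHT (0.0632) or of sh_TMEFF2 +DHT (0.0665), and it went past 1.5-fold without replicate 1 of sh_scramble +DHT (0.60) or of sh_TMEFF2 +DHT (0.65) and with library size in place of TMM (0.61).

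The remaining 2 differences were small and near the threshold. SLC38A1 was at 257 to 265 CPM in sh_TMEFF2 +DHT against 218 to 248 CPM, with a log2 fold change of 0.18 ± 0.06 and an edgeR adjusted p of 0.0499, and no longer passed in 13 of 22 alternatives, including those without 9 of the 12 libraries in turn, all but sh_scramble -DHT replicate 3, sh_scramble +DHT replicate 2 and sh_TMEFF2 -DHT replicate 3. SLC7A8 was at 77.7 to 83.5 CPM against 90.1 to 94.6 CPM (-0.21 ± 0.06, edgeR adjusted p = 0.032), and no longer passed in 12 of 22. The libraries whose removal had this effect were the 3 of sh_scramble +DHT, replicates 1 and 3 of sh_TMEFF2 +DHT and replicate 3 of either group without DHT. SLC1A5 (-0.24, 95% interval -0.49 to 0.01), SLC7A11 (-0.15, -0.42 to 0.12), SLC1A4 (-0.10, -0.30 to 0.11), SLC38A2 (-0.12, -0.29 to 0.05) and SLC3A2 (0.06, -0.11 to 0.22) did not pass. The comparisons share libraries, since each group enters both a DHT contrast and a contrast of lines.

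**Figure D3:**
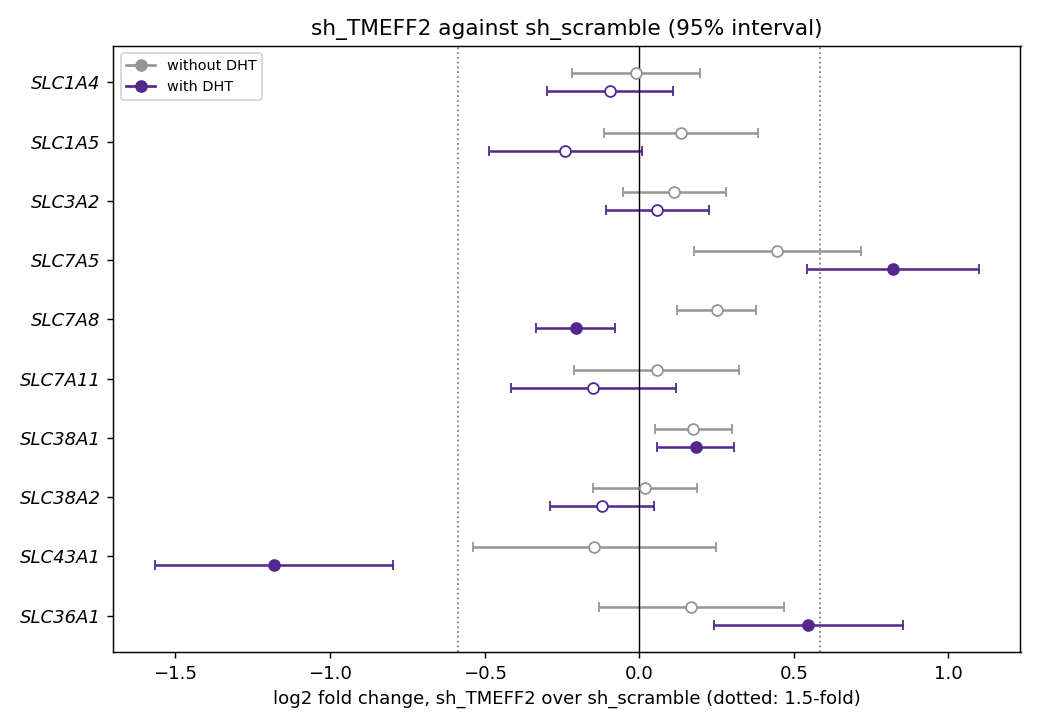
Log2 fold change of sh_TMEFF2 over sh_scramble for each transporter without DHT (grey, upper) and with DHT (purple, lower), with 95% intervals from edgeR. Filled points passed an adjusted p of 0.05 and dotted lines mark 1.5-fold. With DHT, SLC43A1 lies at -1.18 and SLC7A5 at 0.82, and no point without DHT is filled.

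Set side by side, the groups ordered differently for the 3 leucine carriers among the members. For SLC43A1 sh_scramble +DHT was highest at 94.9 ± 10.8 CPM, followed by sh_TMEFF2 +DHT (41.8 ± 8.49), sh_scramble -DHT (33.2 ± 5.41) and sh_TMEFF2 -DHT (30.03 ± 7.24), and neighbours among the last 3 overlapped. For SLC7A5 the order was sh_TMEFF2 -DHT (42.2 ± 3.64), sh_scramble -DHT (31.0 ± 5.59), sh_TMEFF2 +DHT (30.3 ± 2.51) and sh_scramble +DHT (17.1 ± 1.72), where only the middle pair overlapped. For SLC7A8 the order was sh_scramble +DHT (92.0 ± 2.36), sh_TMEFF2 +DHT (79.8 ± 3.23), sh_TMEFF2 -DHT (78.5 ± 1.64) and sh_scramble -DHT (65.9 ± 3.12), and again the middle pair overlapped.

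The balance between LAT3 and LAT1 transcripts was followed as the ratio of SLC43A1 to SLC7A5 per kb in each library, a measure chosen after the values were seen and given without a test. It was 2.01, 1.92 and 1.91 in sh_scramble -DHT and 9.26, 10.6 and 10.3 in sh_scramble +DHT. In sh_TMEFF2 it was 1.21, 1.13 and 1.499 without DHT and 1.95, 2.31 and 3.35 with DHT. Replicate 1 of sh_TMEFF2 +DHT thus lay within the range of sh_scramble -DHT, the other two lay above it, and all 3 lay far below sh_scramble +DHT. SLC7A5 made up 17.3% to 21.1% of the summed per-kb level of the 3 leucine carriers among the members in sh_scramble -DHT. Its share was 5.61% to 6.24% in sh_scramble +DHT. In sh_TMEFF2 its share was 23.1% to 23.6% without DHT and 13.6% to 18.2% with DHT. The sum itself was 33.6 to 38.9 CPM per kb in sh_scramble -DHT, 60.0 to 69.1 in sh_scramble +DHT, and 37.1 to 45.0 over the 6 sh_TMEFF2 libraries. SLC43A2, a relative of SLC43A1 outside the members, is not in this sum. It was at 60.9 ± 1.88 CPM in sh_scramble -DHT and 50.7 ± 3.66 in sh_scramble +DHT. In sh_TMEFF2 it was at 68.4 ± 4.03 CPM without DHT and 52.0 ± 4.24 with DHT. SLC43A2 fell with DHT in both lines (log2 fold change -0.26 and -0.39, edgeR adjusted p = 0.0256 and 0.00659).

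**Figure D4:**
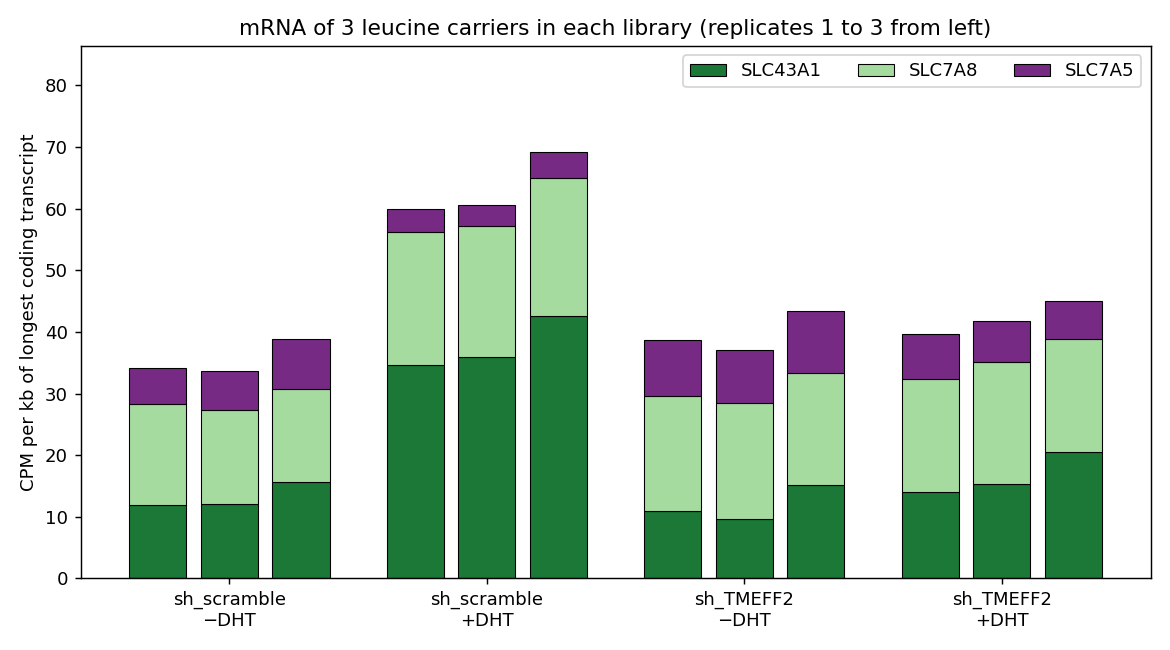
Stacked per-kb levels (CPM per kb of the longest coding transcript) of SLC43A1 (dark green), SLC7A8 (light green) and SLC7A5 (purple), 1 bar per library. The 3 sh_scramble +DHT bars reach 60.0 to 69.1, of which SLC7A5 is at most 6.24%, and the other 9 bars lie between 33.6 and 45.0.

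For each member the gene whose log2 CPM ran most nearly parallel over the 12 libraries was found among 11146 genes with a mean of at least 5 CPM. These correlations describe libraries that fall into 4 groups and share their depth and scaling. The closest to SLC43A1 was SLC16A6 (Pearson r = 0.979), a monocarboxylate transporter family member, the closest to SLC7A5 was LRRC31 (0.981), and the closest to SLC7A8 was TALDO1 (0.969), an enzyme of the pentose phosphate pathway. SLC1A4 ran with TAF1A (0.989), SLC1A5 with TXNDC12 (0.946) and SLC7A11 with GARS (0.949), the glycyl-tRNA synthetase. For SLC36A1 it was SDHA (0.953), for SLC38A1 ZNF100 (0.949), for SLC38A2 PSMC5 (0.899) and for SLC3A2 CCT2 (0.879).

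With DHT in sh_scramble the other amino acid carriers changed in both directions about as often as all tested genes. Of a list of 36, 30 had enough counts to test. In sh_scramble DHT raised 4 and lowered 4 by the adjusted p, against 14.4% and 12.6% of all tested genes. The median log2 fold change was 0.01 (all genes -0.01). SLC6A6, the taurine carrier, fell (-0.82 ± 0.15, edgeR adjusted p = 0.00156), and SLC7A1, the cationic amino acid carrier CAT1, rose (0.40 ± 0.08, 0.00372). SLC38A4, a relative of SLC38A1 and SLC38A2, was at 0 to 4 counts per library in sh_scramble -DHT and at 123 to 171 in sh_scramble +DHT (edgeR adjusted p = 9.48e-06). In sh_TMEFF2 it was at 0 to 1 counts without DHT and at 10 to 28 with DHT (edgeR adjusted p = 0.00334), and with DHT it was lower in sh_TMEFF2 (0.000537). In sh_TMEFF2 5 of the 30 rose and 3 fell with DHT, against 7.84% and 5.21% of all tested genes. Between the lines without DHT 1 was higher and 0 lower, against 0.623% and 0.493%. With DHT 2 were higher and 1 lower, against 6.93% and 9.09%. SLC6A9, the glycine transporter GLYT1, was higher in sh_TMEFF2 at both DHT levels (0.64 ± 0.13, edgeR adjusted p = 0.0316, and 0.61 ± 0.13, 0.00541). The difference of DHT responses passed for 0 of the 30, against 1.65% of all tested genes higher and 3.29% lower in sh_TMEFF2.

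Among the genes that sense leucine and arginine on the lysosome, the sestrins fell and MTOR rose with DHT in sh_scramble. Of 32 tested, 4 rose and 4 fell with DHT in sh_scramble (median 0.02), about as often as among all tested genes (14.4% and 12.6%). Those with the smallest p were the sestrins, among which SESN1 and SESN2 bind leucine and restrain mTORC1, and MTOR, the kinase itself. SESN3 fell from 376 to 412 CPM to 123 to 139 CPM (log2 fold change -1.62 ± 0.09, edgeR adjusted p = 1.39e-07), SESN1 fell by 1.43 ± 0.16 (3.85e-05) and SESN2 by 0.72 ± 0.09 (5.63e-05), while MTOR rose from 94.6 to 103 CPM to 193 to 200 CPM (0.99 ± 0.06, 3.44e-07). In sh_TMEFF2, 3 rose and 2 fell, among them MTOR (0.41 ± 0.06, edgeR adjusted p = 0.00173) and SESN3 (-0.50 ± 0.09, 0.00359), while SESN1 did not pass (-0.38, 0.145). Without DHT 0 were higher and 1 lower in sh_TMEFF2, which was MTOR (-0.32 ± 0.06, edgeR adjusted p = 0.0353), and with DHT 2 were higher and 6 lower. The DHT responses differed between the lines in 4 of 32, with SESN3 (1.12 ± 0.12, edgeR adjusted p = 0.000393) and SESN1 (1.05 ± 0.23, 0.0186) higher and MTOR (-0.57 ± 0.09, 0.00293) and SEC13 (-0.42 ± 0.09, 0.0199) lower in sh_TMEFF2.

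The amino acid response through ATF4, which includes several transporter genes among its known targets, was represented by 30 genes, 1 of which (SESN2) is also on the sensing list. With DHT in sh_scramble 7 rose and 2 fell (median 0.08), against 14.4% and 12.6% of all tested genes. The smallest p was that of SESN2, which fell (-0.72 ± 0.09, edgeR adjusted p = 5.63e-05). VLDLR (0.86 ± 0.14, 0.000486), WARS, the tryptophanyl-tRNA synthetase (0.42 ± 0.08, 0.00131), and TRIB3 (0.48 ± 0.09, 0.0015) rose. In sh_TMEFF2 1 rose, MTHFD2 of mitochondrial folate metabolism (0.43 ± 0.09, edgeR adjusted p = 0.0111). There 3 fell, DDIT3 (-0.43 ± 0.11, 0.0188), NUPR1 (-0.42 ± 0.11, 0.0243) and SESN2 (-0.31 ± 0.08, 0.0332). Between the lines 0 passed without DHT, 2 were higher and 2 lower with DHT, and the DHT response differed in 1, VLDLR (-0.76 ± 0.19, edgeR adjusted p = 0.0412).

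Of 29 genes of glutamine, glutamate and branched-chain amino acid use, 14 rose and 3 fell with DHT in sh_scramble (median 0.20). Of all tested genes 14.4% rose and 12.6% fell. Changes of single genes on the list follow. The genes that rose included GOT2, the mitochondrial aspartate aminotransferase (0.53 ± 0.05, edgeR adjusted p = 1.28e-05), and PPM1K, the phosphatase that activates branched-chain ketoacid breakdown (0.80 ± 0.11, 0.000153). GLUD1, glutamate dehydrogenase, rose by 1.19 ± 0.09 (edgeR adjusted p = 1.81e-06) whereas its near-identical copy GLUD2 fell by 1.13 ± 0.33 (0.021), so how reads were divided between this pair is uncertain. In sh_TMEFF2, 6 rose and 1 fell, led by PFAS of purine synthesis (0.49 ± 0.07, edgeR adjusted p = 0.000954) and CTPS1 of CTP synthesis (0.48 ± 0.08, 0.00316). Between the lines 1 was higher and 0 lower without DHT, and 1 was higher and 3 lower with DHT. The gene that was higher was GLUD2 at both DHT levels (log2 fold change 1.499 and 2.56), and GLUD1 was among those lower with DHT (-0.90), so these counts rest in part on the uncertain pair. The DHT responses differed in 4, all lower in sh_TMEFF2, including GLUD1 and PPM1K (-0.82 ± 0.15, edgeR adjusted p = 0.00844).

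The list of 16 cystine and glutathione genes also holds other redox enzymes and regulators such as NFE2L2. With DHT in sh_scramble 5 rose and 0 fell (median 0.06), against 14.4% and 12.6% of all tested genes. GSR, glutathione reductase, was at 165 to 179 CPM without and 283 to 316 CPM with DHT (0.82 ± 0.10, edgeR adjusted p = 4.69e-05). GGT1, which cleaves extracellular glutathione, rose by 0.84 ± 0.15 (0.00139). In sh_TMEFF2 0 of the 16 passed. Without DHT 1 was higher in sh_TMEFF2, NQO1 (0.52 ± 0.10, edgeR adjusted p = 0.0367), and with DHT 1 was lower, GSR (-0.48 ± 0.09, 0.00407). The DHT response was lower in sh_TMEFF2 for 2, GGT1 (-0.91 ± 0.21, edgeR adjusted p = 0.029) and GSR (-0.51 ± 0.13, 0.046). For each list, the shares of all tested genes that passed in the same comparison are those given beside the other amino acid carriers.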

How the data were processed

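RNA-seq libraries of LNCaP cells were grouped by their labels. The authors checked reads with FastQC, removed contaminants, trimmed with Trimmomatic and quantified transcripts with kallisto 0.42.3 on GRCh38. They deposited estimated counts per gene, scaled by transcript length and library size, which offsets shifts between long and short isoforms of a gene but leaves long genes with more counts. The table has 24 columns, 2 per library, and 0 were unassigned. The labels do not say what the second column is. By the median chi-square per gene, columns of a library differed less (1.06 to 1.17) than replicates (2.12 to 2.72, on the deeper summed counts, which raises it), but the mean over genes overlapped (5.24 to 21.8 against 12.9 to 29.8). For plain counts, sampling alone would give lower values of both measures than the columns of a library showed. The columns were taken as repeat runs, summed and rounded.

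Counts were analysed in R 4.3.3 with edgeR 4.0.16: TMM scaling, filterByExpr (minimum count 10, total 15), 1 mean per group over all 12 libraries, quasi-likelihood tests and Benjamini-Hochberg adjustment over 15419 genes. Calls needed a 1.5-fold change with adjusted p not above 0.05 (interactions: the adjusted p only). "Rose", "fell" and "passed" refer to the adjusted p. CPM are TMM-normalized, and levels between genes are per kb of the longest coding transcript in GENCODE. Alternatives were DESeq2 1.42.0, limma-voom (limma 3.58.1), no filter, a 5 CPM filter, library size alone, the libraries of a comparison alone, a replicate block, each library left out in turn, either column alone, no fold limit and a prior count of 0.5. Code was checked on simulated counts beforehand.

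All 10 members are described. From 5 lists (other amino acid carriers, the ATF4 response, lysosomal leucine and arginine sensing, glutamine and branched-chain amino acid use, cystine and glutathione), at most the 4 genes with the smallest p in a comparison are named, and for each member the 1 most parallel gene. Members and lists were chosen with earlier results of these data known. Proteins and clinical samples were not analysed here, and the results of some genes are left out.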

Additional observations from a re-analysis of the deposited data

Results flagged for a closer look

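The DHT responses of 2 transporters differed between the lines by the test of the difference itself. For SLC7A8 the log2 response was 0.48 in sh_scramble and 0.02 in sh_TMEFF2, a difference of -0.46 (SE 0.08, edgeR adjusted p = 0.00775, adjusted p 2.85e-05 to 0.0354 over the alternatives). For SLC43A1 it was 1.51 and 0.48, a difference of -1.04 (SE 0.25, edgeR adjusted p = 0.034, 0.000449 to 0.0883 over the alternatives).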

How the results depend on the processing

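Of the values for single members under the alternatives, 997 kept their direction and side of the threshold, 59 lost it, 8 gained it and 26 turned direction. In the main fit the members called were 3 with DHT in sh_scramble and 2 between the lines with DHT, or 7 and 5 with no fold limit. The count was 0 for DHT in sh_TMEFF2, 1 with no fold limit and 0 to 1 with a library left out (SLC43A1 without sh_TMEFF2 -DHT replicate 3), and 0 between the lines without DHT, 0 to 1 with a library left out (SLC7A5 without sh_scramble -DHT replicate 3). Without sh_scramble +DHT replicate 1, 2 were called for DHT in sh_scramble, SLC1A5 being lost. SLC1A5 was also lost there with library size alone, from the first columns and without sh_scramble -DHT replicate 1. SLC36A1 was gained there with library size alone, from the second columns and without sh_scramble -DHT replicate 1. Between the lines with DHT, SLC36A1 was gained with library size alone, from the second columns and without replicate 1 of either +DHT group. The count was 2 for the difference of DHT responses, 1 with library size alone, 1 from the first columns and 1 to 2 with a library left out, SLC43A1 being the one lost. Same-numbered libraries of different groups correlated at -0.002 to 0.17 in their deviations from the group mean, above 0.1 in 3 of 18 pairs. Among libraries of the other groups, 11 of 12 libraries correlated best with their own number, although each number was equally common there. This comes from the data only, since the labels do not say what a number shares. The main fit had no term for it. With the replicate number as a block the counts were 3, 0, 0, 2 and 2, and the SLC43A1 response to DHT in sh_TMEFF2 passed (log2 fold change 0.48, adjusted p = 0.00262).

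Directions turned only for differences that had not passed, and the cause was not tested. The largest of these in the main fit were between the lines without DHT: 0.17 for SLC36A1, -0.15 for SLC43A1 and 0.11 for SLC3A2. With library size alone, SLC3A2 turned for DHT in sh_scramble (-0.0065) and for the difference of responses (0.014). From the first columns, SLC3A2 turned for DHT in sh_TMEFF2 (-0.061), and SLC38A2 (-0.0089) and SLC36A1 (-0.067) between the lines without DHT. From the second columns, SLC1A4 (0.019) and SLC3A2 (-0.0038) turned between the lines without DHT, and SLC3A2 (0.075) and SLC38A1 (-0.051) in the difference of responses. With a library left out, the DHT response in sh_TMEFF2 ranged from -0.055 to 0.088 for SLC3A2 and from -0.041 to 0.048 for SLC38A2. The difference of lines without DHT ranged from -0.055 to 0.036 for SLC1A4, from -0.072 to 0.21 for SLC7A11, from -0.041 to 0.062 for SLC38A2 and from -0.35 to 0.0023 for SLC43A1. The difference of responses ranged from -0.12 to 0.025 for SLC3A2 and from -0.027 to 0.076 for SLC38A1. With 3 libraries per group, the 95% interval of the SLC43A1 difference of responses ran from -1.585 to -0.49, and small differences could not be separated from the spread.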
